A study of Mus musculus with 20 samples.

Results

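The genes described here are 33 mouse genes of mitochondrial and peroxisomal fatty acid oxidation. They were chosen by name, from fatty acid uptake to the regulators of the pathway, and 32 of them were found among the 15956 genes counted. Cpt1b, the muscle carnitine palmitoyltransferase of the outer mitochondrial membrane, was not analysed here. All 32 passed the filter on low counts, together with 13991 genes in all.

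The heart covers most of its energy need by burning fatty acids. A fatty acid is bound in the cytosol, activated to an acyl-CoA and carried into the mitochondrion by the carnitine shuttle, a step that malonyl-CoA blocks. Inside, a cycle of reactions shortens the chain, auxiliary enzymes handle double bonds, and the electrons pass through the electron transfer flavoprotein to the respiratory chain. Peroxisomes shorten very long and branched chains, and the nuclear receptors PPARα and ERRα with the coactivator PGC-1α are known activators of many of these genes in heart muscle.

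RNA was sequenced from left ventricular tissue of 20 male mice, 5 in each of 4 diet groups. NP mice were given a normal protein diet and LP mice a low protein diet, HF mice a high-fat diet with normal protein, and HF + LP mice a high-fat diet with low protein. Casein was the protein source in all 4 diets, and no mouse carried a genetic alteration that the labels name. All mice were labelled as 18 months old, which is older than the study's methods state. By the labels, HF mice weighed 58.9 ± 1.76 g and NP mice 43.0 ± 7.82 g (mean ± SD, n = 5). Each low protein group was lighter on average than the group with the same fat content, with 48.6 ± 5.93 g for HF + LP and 32.6 ± 2.69 g for LP. Mice were housed in groups, and which mice shared a cage is not given in the sources used here. Single mice are named below by diet and by the animal number in the labels.

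Total counts per mouse lay between 12559607 and 23331907, and mitochondrially encoded transcripts took 35.4% to 47.2% of them. That share was 38.1% to 39.8% in HF, below every NP mouse (41.3% to 47.1%), and overlapped between LP (35.4% to 44.5%) and HF + LP (38.5% to 47.2%); its part in the results was not tested. All 8 cardiomyocyte markers were detected in every group, and their summed normalized count ranged from 505387 to 724906 in LP and from 689427 to 761762 in NP. Some libraries also held transcripts of other tissue. Ucp1, the uncoupling protein of brown fat, had a normalized count of 6037 in LP mouse 13, 952 in LP mouse 20, 568 in HF mouse 3 and 188 in HF + LP mouse 3, and 0 to 71.8 in the other mice. The summed level of 5 adipocyte markers (Adipoq, Plin1, Cidec, Lep, Cfd) reached 4990 in LP, against highest sums of 787 in NP, 1145 in HF and 185 in HF + LP. Atrial Myl7 exceeded 10000 in LP mice 13 and 15, HF mice 1 and 3 and HF + LP mouse 3. Other marker sums moved with added fat. The summed level of the smooth muscle markers Myh11, Cnn1 and Tagln was 277 to 646 in NP and 277 to 1301 in LP, against 170 to 208 in HF and 137 to 251 in HF + LP, so that it did not overlap in either comparison. The sum of 5 myeloid markers was 3040 to 3704 in NP and 4152 to 5013 in HF, again without overlap, whereas LP (2479 to 5028) overlapped with HF + LP (3018 to 4175). Cardiomyocyte sums were 555172 to 683902 in HF, all below NP, and 552171 to 759629 in HF + LP. The part of these cell types in the results was not tested. Counts over the 32 genes are also given without the 3 libraries with Ucp1 over 500 (LP mice 13 and 20 and HF mouse 3) or the 5 with Myl7 over 10000.

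**Figure D1:**
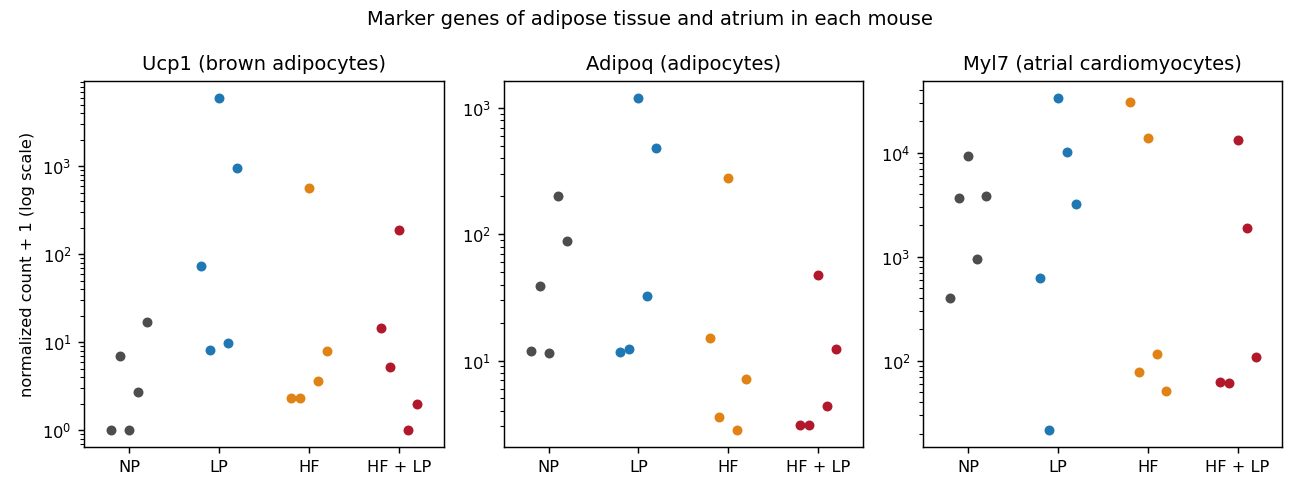
Normalized counts plus 1, on a log scale, of Ucp1, Adipoq and Myl7, with 1 point per mouse and 5 mice per diet group. Ucp1 reached 6037 in LP mouse 13 and 952 in LP mouse 20, and Myl7 exceeded 10000 in 5 mice spread over LP, HF and HF + LP.

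Levels are normalized counts, that is, counts divided by the library size after TMM scaling and multiplied by the mean of those sizes. Reads came from the 3′ ends of transcripts, so levels are compared between mice and not between genes. Differences are log2 fold changes with their standard error (SE) from an edgeR quasi-likelihood fit to all 20 mice. A gene is named as called where its adjusted p over all 13991 genes is under 0.01 and its mean normalized count is over 50, the thresholds of the study. The 4 comparisons of diets share groups: HF enters both HF with NP and HF + LP with HF, and LP enters both HF + LP with LP and LP with NP.

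Adding fat to a low protein diet went with higher levels of most fatty acid oxidation genes. In HF + LP compared with LP, 28 of the 32 genes had a higher level and 4 a lower one, with a median log2 fold change of 0.31, against -0.03 over all genes tested, of which 45.8% were higher. Decr1, the reductase that prepares unsaturated chains for oxidation, rose 1.66-fold, and Pex11a, which drives division of peroxisomes, rose 1.85-fold. These were the 2 genes called by edgeR, against a background of 0.1% of all genes tested. DESeq2 called 7 (Fabp3, Slc25a20, Cpt2, Acaa2, Decr1, Ech1 and Pex11a) and 84 genes in all. A further 15 genes, which made 17 with an unadjusted p under 0.05, had higher levels, whereas 6.26% of all genes passed that limit upward, and none passed it downward, as 9.66% of all genes did. In 6 genes (Fabp3, Slc25a20, Decr1, Ech1, Acaa1a and Pex11a) every HF + LP mouse lay above every LP mouse, which held for 0.915% of all genes tested. In bulk tissue, fewer cells of a type and less RNA per cell cannot be told apart.

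The calls lay close to the threshold. With 1 mouse left out at a time, Decr1 and Pex11a kept an adjusted p under 0.05 in 20 of 20 fits (0.00215 to 0.0338 for Decr1 and 0.00349 to 0.0368 for Pex11a, edgeR), but no gene was called at 0.01 without NP mouse 3, 6 or 8, LP mouse 2, 13, 15 or 20, HF mouse 1, 3, 4 or 5, or HF + LP mouse 2, 4 or 5, 1 was called without NP mouse 5, LP mouse 5 or HF + LP mouse 1, and 5 were called without HF + LP mouse 3. No gene was called with only LP and HF + LP in the fit, with the library-name number as covariate or with the animal number as block, and the highest adjusted p under these settings, that with the block, was 0.4996 for Decr1 and 0.742 for Pex11a (edgeR). In the fit with the block, NP mice 6 and 8 and LP mice 13, 15 and 20 do not inform the difference, because no other mouse has their number. Without the 3 libraries with Ucp1 over 500, 26 of 32 genes were higher, the median was 0.26, 9 had an unadjusted p under 0.05 (2.69% of all genes) and none was called, with a smallest adjusted p of 0.0777. The genes that no longer had an unadjusted p under 0.05 were Acsl1, Crat, Acadvl, Acads, Hadha, Hadhb, Etfb and Acaa1a. Without the 5 libraries with Myl7 over 10000, the median was 0.33, 17 genes had an unadjusted p under 0.05 (5.2% of all genes), Hadhb and Acaa1a no longer among them, and none was called at 0.01. The part of adipose or atrial tissue in these differences was not tested beyond those values.

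With normal protein, adding fat did not shift the genes as a list. In HF compared with NP, 18 of 32 genes were higher and 14 lower, and the median log2 fold change was 0.04, against -0.001 over all genes. None of the 32 was called by edgeR or by DESeq2, against 0.264% of all genes called by edgeR and 163 genes in all by DESeq2. A single gene had an unadjusted p under 0.05, and it was lower: Acacb, the acetyl-CoA carboxylase that makes malonyl-CoA at the mitochondrion. Across all genes, 7.91% passed that limit downward. Acacb was also the single gene in which every HF mouse lay below every NP mouse, which 3.6% of all genes showed. With the 3 libraries with Ucp1 over 500 left out, 13 genes were higher and 19 lower, with a median of -0.02, and without the 5 with Myl7 over 10000, 20 were higher and 12 lower, with a median of 0.06. In both cases Fabp3 had an unadjusted p under 0.05 upward (0.39, SE 0.14, and 0.46, SE 0.16), as 7.07% and 5.54% of all genes did, and none of the 32 was called.

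Lowering protein without added fat went with slightly lower levels of most genes, none of which passed the test. In LP compared with NP, 30 of 32 genes were lower and 2 higher, with a median of -0.20, against 0.02 over all genes. None of the 32 was called by edgeR or DESeq2, against 0% of all genes called by edgeR and 4 genes in all by DESeq2. An unadjusted p under 0.05 with a lower level was found for 6 genes (Pex11a, Acaa2, Slc25a20, Decr1, Ech1 and Cpt2), with log2 fold changes from -0.41 to -0.26, against 2.21% of all genes, and for none with a higher level. No gene separated all LP from all NP mice downward, which 0.343% of all genes did. The 6 genes numbered 2 without NP mouse 3 or LP mouse 13, 3 without NP mouse 6 or LP mouse 20, and 10 without LP mouse 2. Without the 3 libraries with Ucp1 over 500, none of the 32 had an unadjusted p under 0.05 (0.998% of all genes downward) and the median was -0.12. Without the 5 with Myl7 over 10000, 3 had one downward (3.75% of all genes) and the median was -0.18.

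Lowering protein on top of added fat went with the opposite sign in most genes, again without a call. In HF + LP compared with HF, 26 of 32 genes were higher, with a median of 0.16, against 0.02 over all genes. None of the 32 was called by edgeR or DESeq2, against 0% of all genes called by edgeR and 16 genes in all by DESeq2. Ech1 and Decr1 had an unadjusted p under 0.05 upward, against 2.41% of all genes, and no gene did so downward. No gene separated the groups upward, which 0.543% of all genes did. That count of 2 became 7 without HF + LP mouse 3, 5 without LP mouse 13, 4 without HF mouse 4 or 5 or HF + LP mouse 1, and 1 without HF + LP mouse 4 or 5. It was 3 without the 3 libraries with Ucp1 over 500 (3.02% of all genes) and 2 without the 5 with Myl7 over 10000 (2.63% of all genes), and the median was 0.16 in both.

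**Figure D2:**
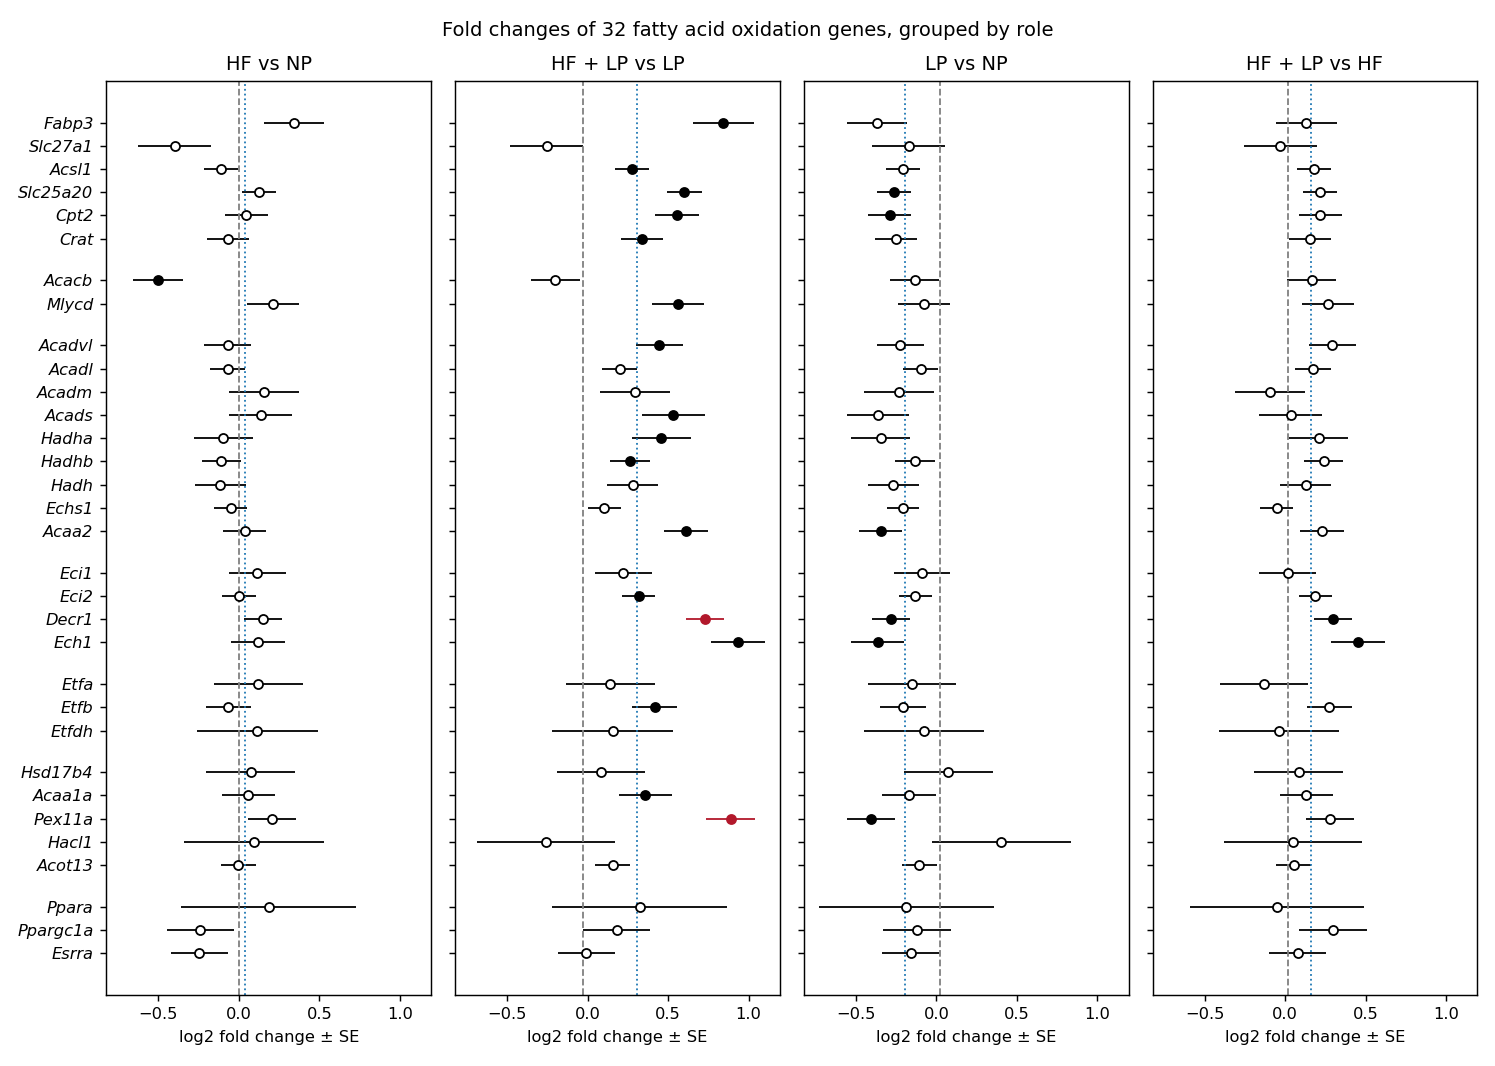
Log2 fold change ± SE of 32 fatty acid oxidation genes in 4 comparisons of diets (5 mice per group), grouped by role. Red points were called, filled black points had an unadjusted p under 0.05 and open points did not; the dashed line is the median of all 13991 genes and the dotted line the median of the 32 genes. In HF + LP compared with LP the dotted line lies at 0.31 and 28 genes lie above 0, and in LP compared with NP 30 genes lie below 0.

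Averaged over both protein levels, added fat went with higher levels of 27 of the 32 genes (median 0.16, against -0.02 over all genes). The genes called were Decr1 (0.44, SE 0.08, adjusted p = 0.0045), Pex11a (0.55, SE 0.11, adjusted p = 0.00552) and Slc25a20 (0.36, SE 0.08, adjusted p = 0.00879), all upward, whereas 1% of all genes were called. DESeq2 called 5 (these 3, Ech1 and Fabp3) and 398 genes in all, and edgeR called none with the library-name number as covariate or with the animal number as block. An unadjusted p under 0.05 was found for 10 genes upward (8.28% of all genes) and 1 downward, Acacb (12.6% of all genes). With 1 mouse left out, Decr1 passed in 16 of 20 fits, Pex11a in 10 and Slc25a20 in 4; no gene was called without NP mouse 5 or 8, HF mouse 4 or HF + LP mouse 4, or without the 3 libraries with Ucp1 over 500, and 1 (Decr1) without NP mouse 4, LP mouse 15 or 20, HF + LP mouse 5 or the 5 libraries with Myl7 over 10000. Averaged over both fat levels, low protein gave no call among the 32 with either tool (0% of all genes with edgeR, 1 gene in all with DESeq2). None of the 32 had an unadjusted p under 0.05, and the median was -0.03.

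The interaction, which is the effect of fat at low protein minus that at normal protein, was above 0 in 31 of 32 genes, with Hacl1 as the exception. Its median was 0.36, against -0.006 over all genes tested. None of the 32 was called by edgeR or DESeq2 (0% of all genes with edgeR, 1 gene in all with DESeq2), and the smallest adjusted p was 0.614 (edgeR). An unadjusted p under 0.05 was found for 13 genes, against 2.86% of all genes, and the largest of these interactions were those of Ech1 (0.82, SE 0.23), Pex11a (0.69, SE 0.21) and Decr1 (0.58, SE 0.17). The 13 genes became 8 without NP mouse 3 or 6, LP mouse 20 or HF + LP mouse 5, and 1 with the animal number as block. They became 5 without the 3 libraries with Ucp1 over 500 (1.65% of all genes) and 12 without the 5 with Myl7 over 10000 (3.83% of all genes). The effects of fat at the 2 protein levels are therefore not shown to differ for any of the 32 genes.

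Ordering the group means shows the same layout gene by gene. LP had the lowest mean in 26 of 32 genes and HF + LP the highest in 23, and 21 genes had both, whereas over all genes tested these held for 25.8%, 24% and 12%. The counts without the 3 libraries with Ucp1 over 500 were 21, 24 and 19, against 25.8%, 23% and 8.43% of all genes. Without the 5 with Myl7 over 10000 they were 24, 22 and 20, against 26.3%, 21.9% and 10.5%. In 12 genes the means ran in the order LP, NP, HF and HF + LP: Fabp3, Slc25a20, Cpt2, Mlycd, Acads, Acaa2, Eci1, Eci2, Decr1, Ech1, Acaa1a and Pex11a. That order held for 7.92% of all genes tested. Without the libraries high in Ucp1 it held for 9 of the 32 (5.49% of all genes), and without those high in Myl7 for 14 (6.39%). Neighbours in that order did not differ past the threshold in any of the 12, since neither LP with NP nor HF with NP nor HF + LP with HF gave a call.

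Among the genes of uptake, activation and the carnitine shuttle, Slc25a20 had the smallest p in HF + LP compared with LP. It encodes the carrier that exchanges acylcarnitine for carnitine across the inner mitochondrial membrane (ENSMUSG00000032602, GRCm38 chr9:108662088-108684641, plus strand). Its normalized counts were 2328, 2289, 1968, 2117 and 2164 in NP mice 3, 4, 5, 6 and 8. They were 2107, 1851, 1393, 1849 and 1863 in LP mice 2, 5, 13, 15 and 20. All LP mice but mouse 2 lay below the lowest NP mouse. The counts were 2016, 2093, 2530, 2471 and 2733 in HF mice 1 to 5, and 2874, 2716, 2592, 2943 and 2616 in HF + LP mice 1 to 5. The lowest HF + LP mouse lay above the highest LP mouse by a wide margin, and HF overlapped with NP. The log2 fold change was 0.60 (SE 0.11, adjusted p = 0.0117, edgeR) in HF + LP compared with LP, and 0.12 (SE 0.11) in HF compared with NP. Without the 3 libraries with Ucp1 over 500 the former was 0.50 (SE 0.11).

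Fabp3, the heart-type protein that binds fatty acids in the cytosol, had its lowest mean in LP, at 41807 ± 12384, followed by 53981 ± 9800.1 in NP, 68439 ± 9039.5 in HF and 74986 ± 12794 in HF + LP (mean ± SD, n = 5). Its log2 fold change in HF + LP compared with LP was 0.84 (SE 0.19, adjusted p = 0.055), and its lowest level of all mice, 23444, was that of LP mouse 13. Without the 3 libraries with Ucp1 over 500 this difference was 0.57 (SE 0.16). Cpt2, which rebuilds acyl-CoA inside the mitochondrion, was at 1884 ± 212 in LP and 2767 ± 589.98 in HF + LP (0.55, SE 0.13, adjusted p = 0.0743), and NP and HF lay between them at 2303 ± 263 and 2379 ± 218. Acsl1, the main acyl-CoA synthetase of heart muscle, and Crat, carnitine acetyltransferase, had smaller differences of 0.28 (SE 0.10) and 0.34 (SE 0.13) with an unadjusted p under 0.05, and of 0.19 (SE 0.12) and 0.18 (SE 0.14) without those libraries, where neither passed that limit. Slc27a1, a fatty acid transport protein, went the other way: its levels of 145 ± 27.9 in NP and 129 ± 26.8 in LP, against 110 ± 18.0 in HF and 108 ± 44.8 with both, gave no p under 0.05 in any comparison of diets.

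The promoters of several genes are shown because the pathway is known as a target of PPARα, which binds with RXR to repeats of AGGTCA. RefSeq windows from 250 bases before to 50 bases after the start on GRCm38.p6 were found for 27 of the 33 genes (30 windows). The repeat AGGTCANAGGTCA, searched on both strands with up to 2 mismatches, was present in 3 of the 30 windows and in 3.86% of 32851 windows of all genes. The ERRα element TCAAGGTCA, which shares AGGTCA with the repeat, was found without mismatch in 0 of the 30 windows and in 0.423% of all windows. The stretches below run 5′ to 3′ on the strand of the gene, from 150 bases before to 30 bases after the start, with the match to the repeat in capitals. Slc25a20, Echs1 and Etfa hold the 3 matches, and Ech1 and Pex11a, with the largest fold changes of HF + LP compared with LP, hold none.
Slc25a20, chr9:108661986-108662165, plus strand: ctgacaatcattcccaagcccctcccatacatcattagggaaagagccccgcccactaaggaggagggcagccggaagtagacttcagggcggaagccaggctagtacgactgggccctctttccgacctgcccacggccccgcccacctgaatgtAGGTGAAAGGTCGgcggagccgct
Echs1, chr7:140116392-140116571, minus strand: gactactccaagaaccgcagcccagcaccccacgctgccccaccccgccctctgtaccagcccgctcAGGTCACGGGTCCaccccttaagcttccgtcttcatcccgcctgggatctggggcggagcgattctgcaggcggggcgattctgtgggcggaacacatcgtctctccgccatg
Etfa, chr9:55512214-55512393, minus strand: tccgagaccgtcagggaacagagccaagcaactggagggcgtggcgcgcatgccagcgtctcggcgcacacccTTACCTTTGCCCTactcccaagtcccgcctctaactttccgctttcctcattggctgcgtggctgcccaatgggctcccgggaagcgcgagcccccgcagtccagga
Ech1, chr7:28825188-28825367, plus strand: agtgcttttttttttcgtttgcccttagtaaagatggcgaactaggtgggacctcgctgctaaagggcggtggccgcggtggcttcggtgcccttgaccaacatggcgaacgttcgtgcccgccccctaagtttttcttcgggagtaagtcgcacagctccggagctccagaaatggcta
Pex11a, chr7:79743102-79743281, minus strand: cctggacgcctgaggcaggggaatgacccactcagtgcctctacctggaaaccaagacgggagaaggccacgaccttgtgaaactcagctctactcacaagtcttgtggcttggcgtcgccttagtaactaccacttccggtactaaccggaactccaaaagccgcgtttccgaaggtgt

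The match in Slc25a20 lies at bases 7 to 19 after the start, that in Echs1 at -83 to -71 and that in Etfa, on the opposite strand, at -77 to -65. Slc25a20 was called over both protein levels, whereas Echs1, the short-chain enoyl-CoA hydratase, and Etfa had differences of 0.10 (SE 0.10) and 0.14 (SE 0.28) in HF + LP compared with LP. A match is a run of letters in these windows and says nothing of binding in these hearts.

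Malonyl-CoA, which blocks the carnitine shuttle, is made by Acacb and removed by Mlycd, malonyl-CoA decarboxylase. Acacb (ENSMUSG00000042010, chr5:114146535-114250761) had normalized counts of 2028, 2519, 1710, 2214 and 1694 in NP mice 3, 4, 5, 6 and 8, and of 2032, 1682, 2137, 1826 and 1573 in LP mice 2, 5, 13, 15 and 20. The HF mice 1 to 5 had 1274, 1687, 1216, 1571 and 1429, all below the lowest NP mouse, though the highest of them by a small margin. The HF + LP mice 1 to 5 had 1499, 1806, 1146, 1451 and 2139, a spread that overlapped with every other group. The log2 fold change in HF compared with NP was -0.50 (SE 0.15, adjusted p = 0.112) and did not pass the threshold, and that in HF + LP compared with LP was -0.20 (SE 0.15). Mlycd was at 1292 ± 285 in LP and 1364 ± 209 in NP, and at 1580.4 ± 157 in HF and 1903 ± 437 in HF + LP, and its log2 fold change in HF + LP compared with LP was 0.56 (SE 0.16, adjusted p = 0.123), or 0.36 (SE 0.17) without the libraries high in Ucp1.

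The 9 enzymes of the mitochondrial cycle were all higher in HF + LP than in LP, with log2 fold changes from 0.10 to 0.61 and a median of 0.30, and 5 of them (Acadvl, Acads, Hadha, Hadhb and Acaa2) had an unadjusted p under 0.05. Of these only Acaa2 (0.49, SE 0.15) still did so without the 3 libraries with Ucp1 over 500. All 9 were lower in LP than in NP, with a median of -0.23. In HF compared with NP, 3 were higher and 6 lower. Acaa2, the thiolase that releases acetyl-CoA in the last step of the cycle, had the largest difference. Its normalized counts were 17462, 14668, 12196, 15527 and 12985 in NP mice 3, 4, 5, 6 and 8, and 12313, 11491, 10419.6, 13334 and 9691 in LP mice 2, 5, 13, 15 and 20. Those of HF mice 1 to 5 were 14320.4, 16354, 13718, 16361 and 13879, and those of HF + LP mice 1 to 5 were 15576, 18048, 12827, 18535 and 22539. HF + LP mouse 3, with 12827, was the only HF + LP mouse within the range of LP. The log2 fold change was 0.61 (SE 0.14, adjusted p = 0.0548) in HF + LP compared with LP and 0.04 (SE 0.14) in HF compared with NP.

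Hadha and Hadhb encode the α and β subunits of the trifunctional protein, which carries out the later steps of the cycle on long chains, and their RefSeq starts lie 273 bases apart on opposite strands. Hadha was at 13002 ± 3604 in LP and 17858 ± 3528 in HF + LP (0.46, SE 0.18), and Hadhb at 5766 ± 613 and 6908 ± 724 (0.26, SE 0.12). LP mouse 13, at 7237, had the lowest Hadha level of the 20 mice, and the other LP mice were at 11678 to 15709. Without the libraries high in Ucp1 the differences were 0.21 (SE 0.15) for Hadha and 0.16 (SE 0.13) for Hadhb. Of the acyl-CoA dehydrogenases, which open the cycle for chains of decreasing length, Acadvl was at 8327 ± 1190.4 in LP and 11345 ± 2470.5 in HF + LP (0.45, SE 0.15), Acads at 2173 ± 639.9 and 3140.2 ± 632 (0.53, SE 0.20), Acadl at 16569 ± 2586 and 19021 ± 1480.1 (0.20, SE 0.11) and Acadm at 6919 ± 665 and 8491 ± 2834 (0.30, SE 0.22). Hadh, the dehydrogenase for short chains, was at 11243 ± 1444 and 13651 ± 2473 (0.28, SE 0.16), and Echs1 at 2574 ± 413 and 2766 ± 203. None of these was called, and without the libraries high in Ucp1 the differences were 0.30 (SE 0.16) for Acadvl and 0.29 (SE 0.16) for Acads.

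Enzymes for unsaturated chains held the gene with the smallest p. Decr1 (ENSMUSG00000028223, chr4:15917240-15945507, minus strand) had normalized counts of 5265, 5311, 4356, 5777 and 4911 in NP mice 3, 4, 5, 6 and 8, and of 4695, 4189.5, 3553, 4789.7 and 3816 in LP mice 2, 5, 13, 15 and 20. HF mice 1 to 5 had 5351, 6153, 5502, 6092 and 5326, and HF + LP mice 1 to 5 had 6121, 7132, 5564, 7772 and 8347. Every HF + LP mouse, and also every HF mouse, lay above every LP mouse, and HF + LP mice 1 and 3 lay within the range of HF. The log2 fold change in HF + LP compared with LP was 0.73 (SE 0.12, adjusted p = 0.00726), with the higher level in 5 of 5 HF + LP mice. It was 0.15 (SE 0.12) in HF compared with NP, -0.28 (SE 0.12) in LP compared with NP and 0.30 (SE 0.12) in HF + LP compared with HF. Without the 3 libraries with Ucp1 over 500, the difference between HF + LP and LP was 0.61 (SE 0.12, adjusted p = 0.0777), and without the 5 with Myl7 over 10000 it was 0.78 (SE 0.13, adjusted p = 0.0258).

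Ech1, the dienoyl-CoA isomerase, had the largest log2 fold change of the 32 genes in HF + LP compared with LP, 0.94 (SE 0.17, adjusted p = 0.0117), which is 1.91-fold. Its normalized counts were 17727, 13975, 12331, 16021 and 14337 in NP mice 3, 4, 5, 6 and 8, and 14173, 11631, 7803, 13624 and 10557 in LP mice 2, 5, 13, 15 and 20. HF mice 1 to 5 had 14289, 16049.6, 15495, 18860.0 and 16063, and HF + LP mice 1 to 5 had 18138, 21849, 15948, 27773 and 26849. The groups LP and HF + LP did not overlap, and 4 of 5 HF + LP mice lay above every NP mouse. The log2 fold change in HF + LP compared with HF was 0.45 (SE 0.17) and that in HF compared with NP 0.12 (SE 0.17). Without the 3 libraries with Ucp1 over 500, the difference between HF + LP and LP was 0.74 (SE 0.16, adjusted p = 0.101). Eci1 and Eci2, isomerases that shift double bonds, moved less: Eci2 was at 1490 ± 149.9 in LP and 1856 ± 192 in HF + LP (0.32, SE 0.10), and Eci1 at 3407 ± 293 and 3969 ± 992 (0.22, SE 0.18).

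**Figure D3:**
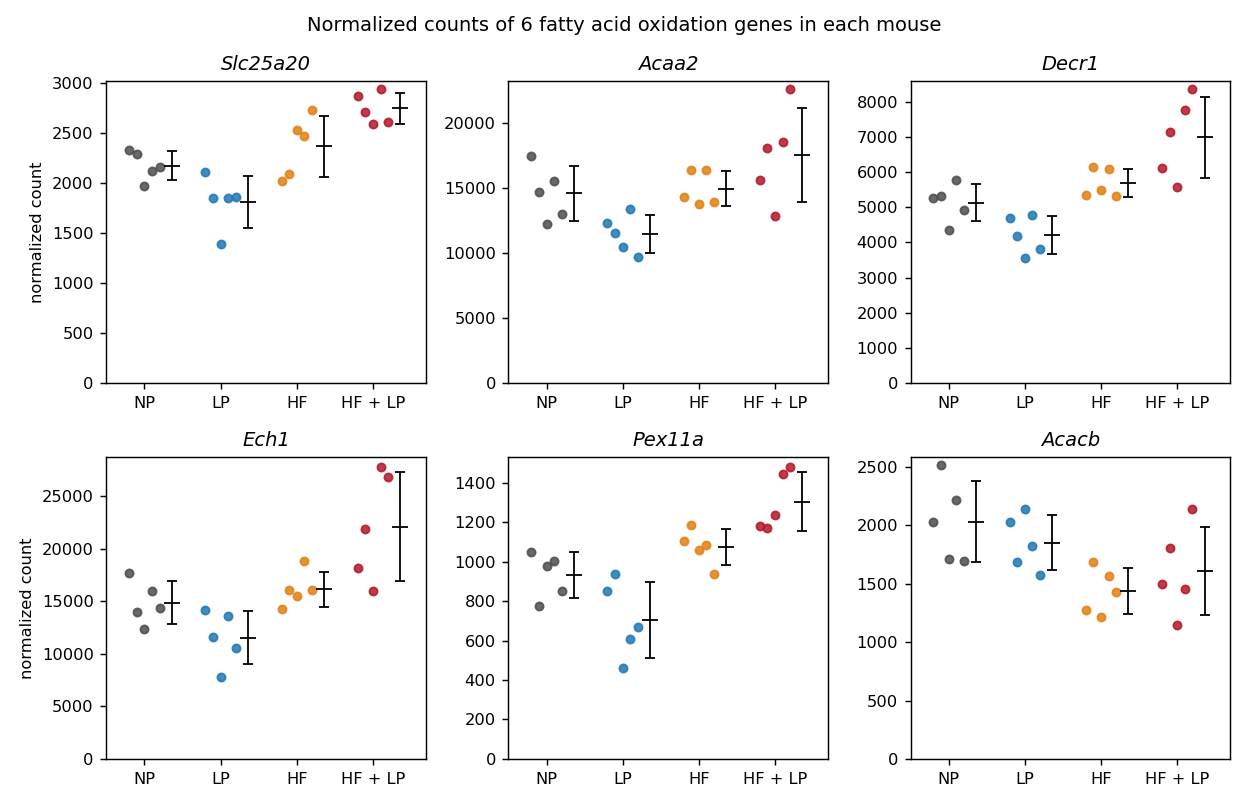
Normalized counts of Slc25a20, Acaa2, Decr1, Ech1, Pex11a and Acacb, with 1 point per mouse and, to the right of each group, the mean and SD (n = 5). In Slc25a20, Decr1, Ech1 and Pex11a all HF + LP mice lie above all LP mice, and in Acacb all HF mice lie below all NP mice.

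Peroxisomal genes differed among themselves. Pex11a (ENSMUSG00000030545, chr7:79735957-79743131, minus strand) had normalized counts of 1051, 777, 978, 1006 and 849 in NP mice 3, 4, 5, 6 and 8, and of 849, 939.7, 459, 606 and 667 in LP mice 2, 5, 13, 15 and 20. HF mice 1 to 5 had 1105, 1186, 1058, 1082 and 939, and HF + LP mice 1 to 5 had 1180.2, 1169, 1237, 1446 and 1481. Every HF + LP mouse lay above every LP and every NP mouse, and LP mouse 13 had the lowest level of the 20. The log2 fold change in HF + LP compared with LP was 0.89 (SE 0.15, adjusted p = 0.00839), and it was 0.69 (SE 0.15, adjusted p = 0.0934) without the 3 libraries with Ucp1 over 500 and 0.67 (SE 0.15, adjusted p = 0.0907) without the 5 with Myl7 over 10000. It was 0.20 (SE 0.15) in HF compared with NP, -0.41 (SE 0.15) in LP compared with NP and 0.28 (SE 0.15) in HF + LP compared with HF. Acaa1a, a peroxisomal thiolase, was at 296 ± 69.6 in LP and 379 ± 43.8 in HF + LP (0.36, SE 0.16), with no overlap of these groups. LP mouse 13 was at 174 and the other LP mice at 306 to 340, and without the libraries high in Ucp1 the difference was 0.20 (SE 0.15). Its near-identical paralogue Acaa1b was not analysed here, and how reads shared by both were assigned is not given in the sources used here.

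Hsd17b4, the multifunctional enzyme of peroxisomal oxidation, stayed between 420 ± 107 in NP and 468 ± 124 in HF + LP, and Hacl1, which splits branched chains, between 49.5 ± 16.8 in NP and 64.3 ± 31.9 in LP. Acot13, a mitochondrial thioesterase, ranged from 11911 ± 1626 in LP to 13261 ± 1625 in HF + LP. None of these 3 had an unadjusted p under 0.05 in any comparison. Hsd17b4 shares a stretch with the pseudogene Cd63-ps on the same strand, and Hacl1 shares one with Btd on the opposite strand, as do Etfdh with 4930579G24Rik, Acadvl with Dvl2, Echs1 with Paox, Acaa1a with Myd88, Crat with Dolpp1, Fabp3 with Zcchc17 and Esrra with Trmt112. Whether strand was used in counting is not given in the sources used here, so reads from such stretches could have been assigned to either gene.

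The regulators did not pass the test in any comparison, and Ppara varied most of the 32 genes between mice of one diet. Ppara had normalized counts of 397, 89.5, 497, 399 and 234 in NP mice 3, 4, 5, 6 and 8, and of 309, 605, 42.1, 203 and 268 in LP mice 2, 5, 13, 15 and 20. HF mice 1 to 5 had 502, 731, 194, 278 and 147, and HF + LP mice 1 to 5 had 584, 177, 375, 219.5 and 421. All 4 groups overlapped, and the highest mouse had 17.4 times the level of the lowest, the widest range of the 32 genes. The log2 fold changes were 0.19 (SE 0.54) in HF compared with NP and 0.32 (SE 0.54) in HF + LP compared with LP, so that a difference of the size seen in Ech1 would lie within 2 SEs of 0. With 1 mouse left out, the former ran from -0.22 to 0.39 and the latter from 0.03 to 0.81.

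Ppargc1a, which encodes PGC-1α, had normalized counts of 1854, 1225, 1701, 1591 and 1589 in NP mice 3, 4, 5, 6 and 8, and of 1805, 1907, 784, 1336 and 1486 in LP mice 2, 5, 13, 15 and 20. HF mice 1 to 5 had 1393, 1762, 1222, 1241 and 1128, and HF + LP mice 1 to 5 had 2509, 1291, 1370.3, 1429 and 1683. Its groups overlapped, with log2 fold changes of -0.24 (SE 0.21) in HF compared with NP and 0.18 (SE 0.21) in HF + LP compared with LP. The latter ran from -0.02 to 0.29 with 1 mouse left out and from -0.20 to 0.19 under the other settings. The predicted genes Gm42614, Gm42615 and Gm43605 overlap with Ppargc1a on the same strand. Esrra, which encodes ERRα, had 742, 1032, 745, 718 and 1069 in NP mice 3, 4, 5, 6 and 8, and 902, 694, 674, 861 and 725 in LP mice 2, 5, 13, 15 and 20. HF mice 1 to 5 had 577, 459, 906, 756 and 929, and HF + LP mice 1 to 5 had 809, 871, 709, 858 and 584. Its log2 fold changes were -0.24 (SE 0.18) in HF compared with NP and -0.01 (SE 0.18) in HF + LP compared with LP.

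The 3 genes of the electron transfer flavoprotein and its dehydrogenase did not vary alike. Etfa and Etfb encode the 2 subunits of the flavoprotein, and Etfdh the enzyme that passes its electrons to ubiquinone. Etfb was at 9143 ± 1716 in LP and 12193 ± 2147 in HF + LP (0.42, SE 0.14, unadjusted p = 0.00814 by edgeR), a difference of 0.22 (SE 0.14) without the libraries high in Ucp1. Etfa was at 2593 ± 269.8 and 2859.7 ± 868 (0.14, SE 0.28), and Etfdh at 2195 ± 444 and 2445 ± 1034 (0.15, SE 0.37). The lowest and highest Etfdh levels of the study, 967 and 4275, were those of HF + LP mouse 5 and HF mouse 5.

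Mice of one diet differed from each other in a way that several genes shared. The mouse with the lowest Etfdh level of its group (NP 6, LP 15, HF 2 and HF + LP 5) was also the mouse with the lowest Etfa level in 4 of 4 groups, and with the lowest Acadm, Hacl1 and Esrra level in 3 of 4. The same mice had the highest level of their group in 4 of 4 groups for Hadha, Decr1 and Crat, and in 3 of 4 for Cpt2, Acads and Acaa1a. In HF mice 1 to 5, Etfdh was at 1260, 1000.2, 3786, 2229 and 4275, whereas Hadha was at 15596, 19081, 12849, 16438 and 13312. Pdk4, the kinase that restrains pyruvate oxidation, also had its lowest level in the mouse with the lowest Etfdh in 3 of 4 groups, and in HF it was at 112, 84.3, 2554, 306 and 2274. This was seen after the values were known, is given as a description, and its relation to depth, tissue content or RNA quality was not tested. The within-group SD on the log2 scale was 1.04 for Ppara, 0.77 for Hacl1, 0.68 for Etfdh, 0.49 for Etfa and 0.48 for Hsd17b4, the 5 widest of the 32 genes, against 0.15 for Echs1, the narrowest.

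**Figure D4:**
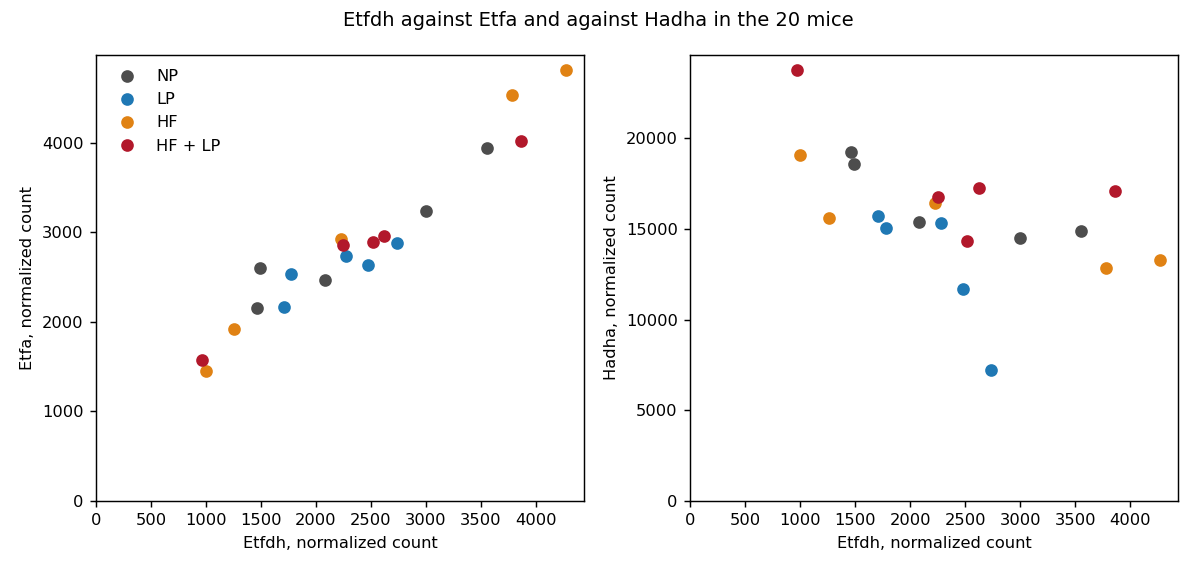
Normalized counts of Etfdh (x axis) against Etfa (left) and Hadha (right), with 1 point per mouse, coloured by diet. The mouse with the lowest Etfdh in each group has the lowest Etfa and the highest Hadha of that group.

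The 32 genes together show how the mice of each group were spread. LP mouse 13 had the lowest level of its group in 14 genes and LP mouse 20 in 11, and the median deviation of their genes from the mean of all mice was -0.38 and -0.34 on the log2 scale, though LP mouse 13 also had the highest level of its group in 8 genes. Both are among the libraries with Ucp1 over 500, and in LP mouse 13 the muscle creatine kinase Ckm was at 3586, against 9192 to 13384 in the other LP mice. LP mice 2, 5 and 15 had median deviations of -0.001, -0.11 and -0.15. NP mouse 5, with Ucp1 at 0, was likewise lowest of its group in 14 genes, with a median deviation of -0.14, and the HF mice lay between -0.08 and 0.10. HF + LP mouse 3, with Ucp1 at 188 and Myl7 at 13176, had the lowest level of its group in 18 genes and a median deviation of -0.04, while the other HF + LP mice lay between 0.19 and 0.29.

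**Figure D5:**
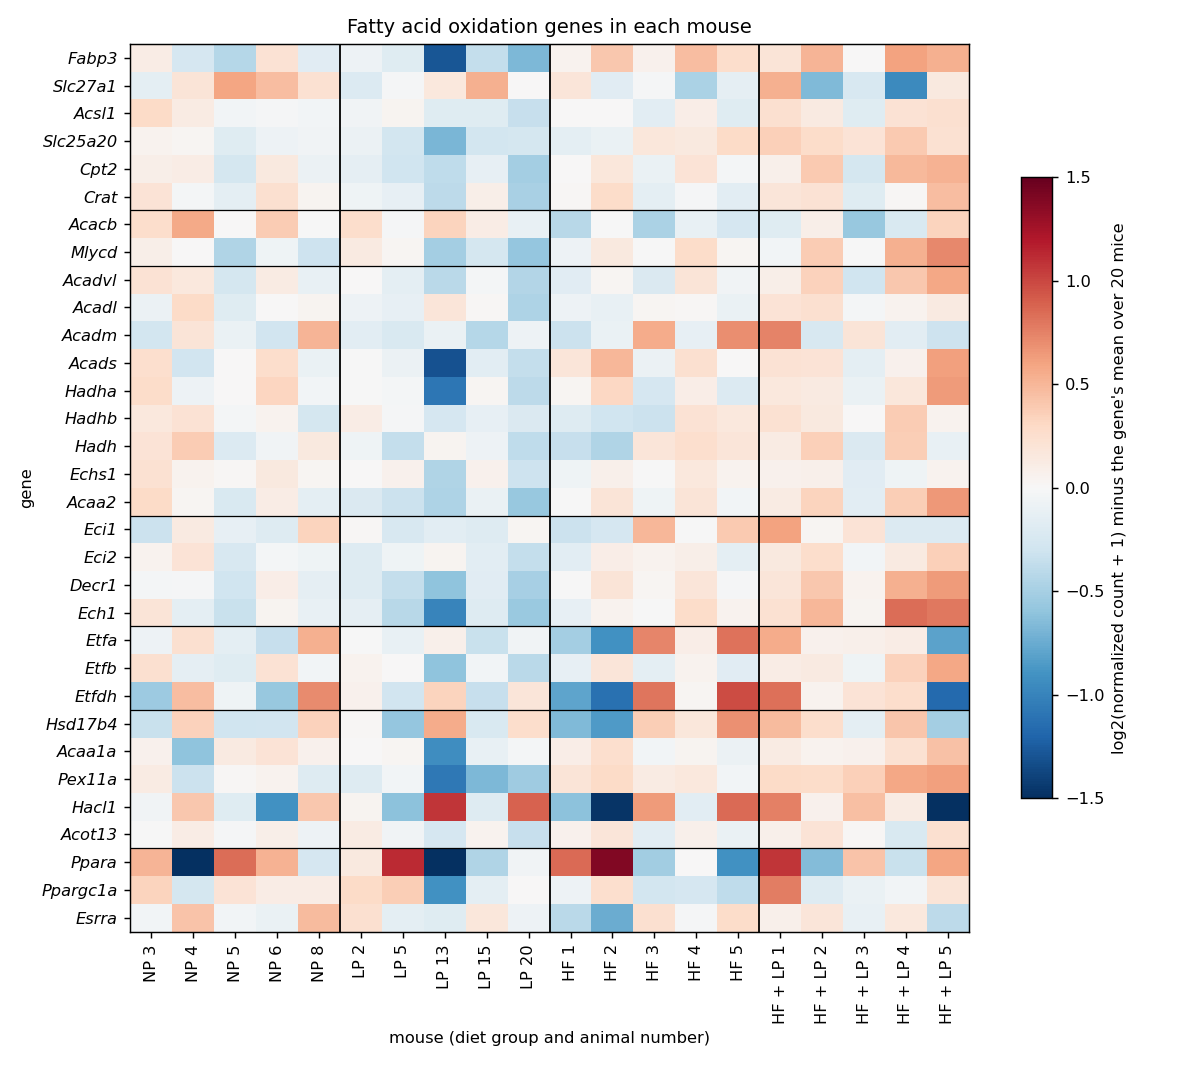
Log2 normalized count plus 1 of each gene in each mouse, minus the mean of that gene over the 20 mice, with genes grouped by role and mice by diet. LP mice 13 and 20 have median deviations of -0.38 and -0.34 and HF + LP mouse 5 one of 0.29, and the rows of Etfa, Etfdh, Hsd17b4 and Hacl1 follow another order of mice.

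Of 91 related genes listed beside the 33, 88 were tested. Of these, 48 were higher in HF + LP compared with LP and 40 lower, with a median of 0.01, and 11 had an unadjusted p under 0.05 upward and 6 downward. Over all genes tested, 6.26% passed that limit upward and 9.66% downward. Among 12 genes known to respond to PPAR receptors, 8 were higher and 4 lower (median 0.57), and 5 had an unadjusted p under 0.05 upward. In HF compared with NP 10 of them were higher (median 0.35), and 3 had an unadjusted p under 0.05 upward, as 724 of all 13991 genes did. Of the 12, Cidea is also a listed marker of brown adipocytes. It was at 2820 in LP mouse 13 and at 654 to 933 in the other LP mice. The part of adipose tissue in this list was not tested. In HF + LP compared with LP, the median among 32 other peroxisomal genes was 0.03, with 4 upward and 1 downward. Among 24 other mitochondrial fatty acid genes it was -0.05, with 1 upward and 4 downward, and among 20 other regulators it was 0.03, with 1 in each direction.

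Cd36, the fatty acid translocase, was called for added fat over both protein levels (0.40, SE 0.07, adjusted p = 0.0045), with 7147 ± 1391 in LP and 8429 ± 400.3 in NP, against 9992 ± 599 in HF and 10432 ± 203 in HF + LP. Nudt7, a peroxisomal hydrolase of CoA, and Scp2, a peroxisomal thiolase and lipid carrier, had log2 fold changes of 0.49 (SE 0.12) and 0.55 (SE 0.14) in HF + LP compared with LP and were not called. Abcd3, a peroxisomal acyl-CoA transporter, had 0.33 (SE 0.10) in the same comparison and 0.28 (SE 0.10) in HF + LP compared with HF.

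Other related genes were named by their unadjusted p, and none of them was called. In HF compared with NP, Pdk4 had a log2 fold change of 2.21 (SE 0.91), with HF mice 3 and 5 at 2554 and 2274 and the other HF mice at 84.3 to 306, and the acyl-CoA synthetase Acsl3 one of 0.57 (SE 0.19), while Pccb of propionyl-CoA carboxylase (-0.29, SE 0.13), Acss1 (-0.27, SE 0.12) and Lpin1 (-0.28, SE 0.11) were lower. In HF + LP compared with LP, Acaca, the carboxylase of fat synthesis, had -2.47 (SE 0.56), with LP mouse 13 at 1635, LP mouse 20 at 370 and the other LP mice at 113 to 134. In the same comparison Nrf1 had -0.46 (SE 0.15), Abcd2 -0.75 (SE 0.29) and Acsl5 -0.67 (SE 0.28). Acsl5 was at 563 in LP mouse 13 and at 264 in LP mouse 20, the libraries with the most Ucp1, and at 127 to 165 in the other LP mice. Abcd2 was at 113 and 73.9 in these 2 mice and at 34.6 to 47.9 in the other LP mice. The part of adipose tissue in these values was not tested. In LP compared with NP, 5 of the 88 related genes had an unadjusted p under 0.05 upward and 2 downward. Over all genes tested, 703 and 309 of 13991 did so. Pex19 had -0.24 (SE 0.11), whereas Acaca was at 104 ± 21.8 in NP and 475 ± 657 in LP. In HF + LP compared with HF, Ucp3 had 0.70 (SE 0.29) and Angptl4 1.19 (SE 0.57). Cpt1a, the liver isoform of the outer-membrane transferase, stayed between 269 ± 25.2 in NP and 291 ± 12.4 in HF, with no p under 0.05 in any comparison.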

How the data were processed

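Left ventricular RNA of 20 mice was sequenced with QuantSeq 3′ libraries (75 bp reads, NextSeq 500). The authors aligned reads with BlueBee software and deposited raw counts per Ensembl gene and mouse, without normalization. Per the submitters' processing notes the build was GRCm38 and DESeq2 1.22.2 was used; the counting program is not given in the sources used here. Mice were grouped by the diet in the labels.

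From these counts, edgeR 4.0.16 under R 4.3.3 gave all tests: filterByExpr by diet, TMM scaling, 1 quasi-likelihood fit to all 20 mice, and Benjamini-Hochberg adjustment over 13991 genes. SEs were derived from the F statistic. DESeq2 1.42.0 was an alternative. The fit was tested on simulated data. Symbols were found for 15917 of 15956 genes, and coordinates are those of GENCODE M21 on GRCm38.

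The 33 genes and the related and marker lists were chosen with earlier results of these data known. Values in every mouse are given for genes called in any comparison, for up to 3 higher and 3 lower with the smallest unadjusted p under 0.05 in each comparison, and for Ppara, Ppargc1a and Esrra (the rule also held Cpt1b, which was not analysed here); related genes were named by the same rule, with the paralogues Cpt1a and Acaa1b. An item that this rule selects is not reported here. Of the 4 listed markers of skeletal muscle, 0 passed the filter on low counts.

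Each test was repeated with DESeq2, with RLE scaling, without the filter or with at least 10 counts required in each mouse, at an adjusted p under 0.05, without the minimum mean, and without mitochondrially encoded genes. It was also repeated with the library-name number as covariate, with animal number as block, on the compared diets alone, and with each mouse left out in turn. Leaving out the 3 libraries with Ucp1 over 500 or the 5 with Myl7 over 10000 was chosen after seeing the data.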

Additional observations from a re-analysis of the deposited data

Results flagged for a closer look

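Each of the 32 genes, Ucp1 and Myl7 was checked in each diet for a mouse far from the others by Dixon's test (critical value 0.71 for 5 mice). Of 136 checks, 7 were past it, where chance alone gives about 1 in 20. Acaa1a was at 218 in NP mouse 4, against 346 in the next NP mouse, and at 174 in LP mouse 13, against 306 in the next LP mouse. Acsl1 was at 7894 in HF + LP mouse 3, against 9843 in the next, just past the critical value. The other 4 were markers of other tissue. The brown fat gene Ucp1 had a normalized count of 6037 in LP mouse 13, against 952 in the next LP mouse. It was at 568 in HF mouse 3, against 6.90 in the next HF mouse, and at 188 in HF + LP mouse 3, against 13.5 in the next. The atrial gene Myl7 was at 13176 in HF + LP mouse 3, against 1895 in the next. Their part in the values of the oxidation genes was not tested beyond the fits without these libraries.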

How the results depend on the processing

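The sign of the median log2 fold change of the 32 genes was the same under every setting in HF + LP compared with LP (0.25 to 0.36), LP compared with NP (-0.23 to -0.09), HF + LP compared with HF (0.14 to 0.19), fat over both protein levels (0.12 to 0.20) and the interaction (0.25 to 0.42); in HF compared with NP it ran from -0.03 to 0.08 and for protein over both fat levels from -0.05 to 0.04. For the 9 genes given in every mouse, each in 7 comparisons, 1863 values were computed under other settings. Of these, 1683 kept their sign and their side of the threshold, 89 changed sign in a comparison that passed the threshold under neither setting, 83 lost an adjusted p under 0.01, 8 gained it and 0 changed sign with a call. In HF + LP compared with LP, DESeq2 called 7 genes (Acaa2, Cpt2, Decr1, Ech1, Fabp3, Pex11a, Slc25a20) and an adjusted p under 0.05 gave 4, against 2; 0 were called with the library-name number as covariate, with only the compared groups in the fit, and without the libraries high in Ucp1 or Myl7. For fat over both protein levels, DESeq2 called 5, an adjusted p under 0.05 gave 5, the covariate gave 0, and leaving out libraries high in Ucp1 or Myl7 gave 0 and 1. Leaving out mitochondrially encoded genes before scaling gave 3 calls in HF + LP compared with LP. The cause was not tested, except that fewer samples enter the fits that leave libraries out.

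Counts of genes with an unadjusted p under 0.05 moved as follows. With the covariate they were 3 lower in LP compared with NP and 2 lower for fat. With only the compared groups they were 3 higher and 2 lower in HF compared with NP. DESeq2 gave 1 lower for protein. Without the libraries high in Ucp1 they were 1 higher in HF compared with NP, 9 higher in HF + LP compared with LP, 0 lower in LP compared with NP and 5 higher for the interaction. Without those high in Myl7 they were 1 higher in HF compared with NP, 3 lower in LP compared with NP and 0 lower for fat. With 1 mouse left out, calls ran from 0 to 5 in HF + LP compared with LP and from 0 to 4 for fat; counts ran from 0 to 1 higher in HF compared with NP, 1 to 7 higher in HF + LP compared with HF, 13 to 18 higher and 0 to 1 lower in HF + LP compared with LP, 2 to 10 lower in LP compared with NP, 8 to 14 higher and 1 to 2 lower for fat, 0 to 1 lower for protein, and 8 to 14 higher for the interaction.

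Same-numbered mice of different diets are different animals, and their deviations from the group means had mean correlations of -0.19 over 3 pairs of NP and HF, -0.04 over 5 pairs of HF and HF + LP, 0.15 over 2 pairs of LP and HF + LP and 0.21 for 1 pair of NP and LP, so the numbers do not pair the mice. With the animal number as a block, 0 genes were called in HF + LP compared with LP and 0 for fat, and the counts at an unadjusted p under 0.05 were 1 higher in HF compared with NP, 7 higher in HF + LP compared with LP, 0 lower in LP compared with NP, 6 higher for fat and 1 higher for the interaction. That fit rests on fewer mice, because NP mice 6 and 8 and LP mice 13, 15 and 20 have numbers that occur once.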
